A study of Mus musculus with 4 samples.

Results

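Proteasome genes were taken from the deposited expression table as all protein-coding rows whose symbol starts with Psma, Psmb, Psmc, Psmd, Psme, Psmf or Psmg followed by a digit, with the interferon-induced catalytic subunits Psmb8, Psmb9 and Psmb10 set apart. This gave 47 genes of 54532 in the table, of which 22046 are protein-coding. They comprised 8 alpha-ring and 8 beta-ring genes, together the 16 core genes, and 7 Psmc and 14 Psmd genes, together the 21 cap genes. A further 5 Psme genes encode activators, 1 Psmf gene an inhibitor and 4 Psmg genes assembly factors. The names do not follow the roles everywhere: Psmc3ip is a meiotic recombination factor named for its binding to Psmc3, Psmd5, Psmd9 and Psmd10 are chaperones of cap assembly, and Psme2b is a near-copy of Psme2.

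The study compared bulk RNA from 2 libraries labelled Piezo1KO with 2 labelled WT, all 4 described as CD4+ T cells that had entered tumours grown from the melanoma line B16, which is of mouse origin and makes pigment. Piezo1 encodes a mechanically gated ion channel, and the series' title links it to helper T cells that make interleukin-9. The labels name no deleting recombinase, allele, age or sex, and nothing in them ties a library to its own animal, so p-values measure no more than how far these libraries scatter, possibly for technical reasons. Libraries are numbered by the sample number in their titles. In FPKM (fragments divided by gene length and by a library factor that the authors chose), Piezo1 itself measured 18.7 in Piezo1KO 1 and 7.64 in Piezo1KO 2, against 27.8 in WT 1 and 27.6 in WT 2 (log2 fold change -1.14 ± 0.41 SE, limma adjusted p = 0.166).

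Libraries stood apart in several respects that touch every proteasome value. Assigned reads ranged from 13789266 to 15892797, and mitochondrial genes took 20.1% and 48.3% of them in Piezo1KO 1 and 2, against 3.86% and 2.99% in WT 1 and 2. The labelled cell type was weakly marked in all 4 libraries. Over 10 T cell markers the summed level was 14.6 and 9.90 FPKM in Piezo1KO 1 and 2, against 2.38 and 1.86 FPKM in WT 1 and 2, with 35 and 9 reads of Cd4 in Piezo1KO libraries against 1 and 3 in WT libraries. Over 8 melanocyte markers it was 6375 and 6402 FPKM in Piezo1KO libraries, against 5717 and 5768 FPKM in WT libraries. Singly, 3 of these 8 genes had both Piezo1KO libraries above both WT libraries and 3 had both below. Among all genes tested, 33.9% and 35.6% did. Macrophage markers (7 genes) summed to 380.0 and 264 FPKM in Piezo1KO libraries, against 89.8 and 67.0 FPKM in WT libraries. Neutrophil markers (5 genes, with Ly6g at 0 throughout) summed to 139 and 47.1 FPKM in Piezo1KO libraries, against 0.713 and 1.23 FPKM in WT libraries, and erythroid markers (5 genes) to 5124 and 8472 FPKM, against 389 and 244 FPKM in WT libraries. The part of these differences in the proteasome results was not tested, and in bulk RNA fewer cells of a type and less RNA per cell cannot be told apart.

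The proteasome is the main machine by which cells degrade proteins tagged with ubiquitin. Its core is a barrel of stacked alpha and beta rings, and the cutting sites face inward on Psmb5, Psmb6 and Psmb7. A cap docks on the alpha ring, where Psmd subunits bind and strip ubiquitin and a ring of Psmc ATPases unfolds the protein and threads it in. In immune cells and under interferon, Psmb8, Psmb9 and Psmb10 replace the standard cutting subunits and the Psme1 and Psme2 proteins form an alternative activator, which changes the peptides offered for antigen presentation.

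Core genes were higher in both Piezo1KO libraries than in both WT libraries without exception among those tested, and most cap genes were too, by smaller amounts, but no single proteasome gene passed the test. Of the 47 genes, 45 had a mean of at least 1 FPKM and entered the fit. The testis-specific alpha subunit Psma8 and the thymic beta subunit Psmb11 did not. Both had reads only in WT 2, at 0.0581 and 0.0410 FPKM. Limma called 0 of the 45 at an adjusted p under 0.05, where 1.1% of all 11085 genes tested were called (0.731% higher and 0.37% lower in Piezo1KO), and voom on the recovered reads also called 0. At an unadjusted p under 0.05 limma listed 20 of the 45, all higher in Piezo1KO, where 14.9% of all genes were listed as higher and 28.6% in either direction. Adjusted p-values of the 45 ran between 0.0805 and 0.985 (limma).

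Groups did not overlap in 38 genes with higher values in Piezo1KO, where 33.9% of all genes stood apart in that direction, and in 3 genes with lower values in Piezo1KO (Psmd14, Psme3 and Psme4), where 35.6% of all genes did. The remaining 4, Psmc3ip, Psmd3, Psmd5 and Psmd11, overlapped. A more closely matched background gave a higher share: among 3786 protein-coding genes with a mean between 10 and 169 FPKM, 47.3% stood apart upward and the median log2 fold change was 0.14. The log2 fold change was positive in 41 of the 45, beside 49.6% of all genes tested. The median over the 45 was 0.50, beside -0.0059 over all genes tested. These directions hold for FPKM as deposited. Scaled to all assigned reads, the median of all genes moved to -0.67, and relative to it the core median lay 0.44 higher and the cap median 0.18 higher; the medians themselves were then -0.23 and -0.50, so both turned below 0.

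**Figure D1:**
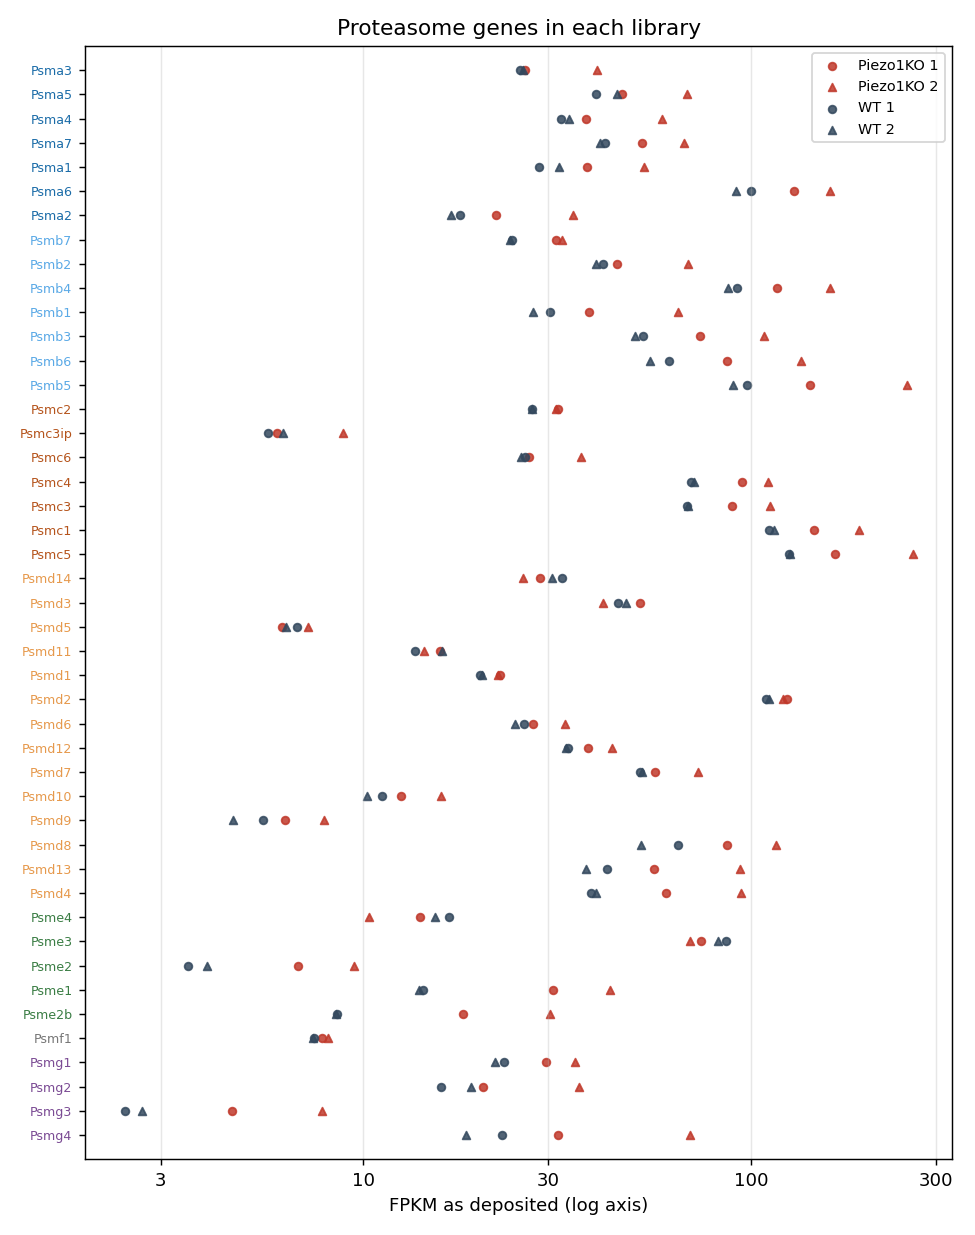
Deposited FPKM (log axis) of the 45 tested proteasome genes, 1 row per gene, with a red circle for Piezo1KO 1, a red triangle for Piezo1KO 2, a dark circle for WT 1 and a dark triangle for WT 2; the colour of a name gives its subgroup. The red points lie right of both dark points in 38 rows and left of both in 3 (Psmd14, Psme3, Psme4), for values as deposited, and Piezo1KO 2 lies above Piezo1KO 1 in 37 rows.

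Promoters of 4 genes that the results turn on are printed here because these genes carry the highest core value (Psmb5), the highest and lowest cap values (Psmd4, Psmd14) and the highest activator with a sequence of its own (Psme1). Each runs 5′ to 3′ over 300 bases, 250 before the start site and 50 from it onward, as given by RefSeq for GRCm38.p6. Psmb5 spans chr14:54617946-54618245 on the minus strand, Psmd4 chr3:95042565-95042864 on the minus strand, Psmd14 chr2:61711444-61711743 on the plus strand and Psme1 chr14:55578244-55578543 on the plus strand. Capitals mark matches on either strand to 5 short motifs. The first, TGANNNNGC, is the core of the element bound by NRF1 and NRF2, factors known to drive proteasome genes. The second is the box CCAAT that many housekeeping promoters carry, and the third is a core for ETS family factors, written CCGGAAG. The fourth motif, written GATTGGC, reads as the same box when taken on the opposite strand. The fifth, GAAANNGAA, is part of an interferon response element and was added after values had been seen.
Psmb5: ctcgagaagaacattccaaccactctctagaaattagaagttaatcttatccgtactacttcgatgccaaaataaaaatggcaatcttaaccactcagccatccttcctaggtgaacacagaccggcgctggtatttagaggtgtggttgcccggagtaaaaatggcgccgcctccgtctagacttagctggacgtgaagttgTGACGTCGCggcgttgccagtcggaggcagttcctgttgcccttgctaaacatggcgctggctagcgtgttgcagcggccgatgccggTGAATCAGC
Psmd4: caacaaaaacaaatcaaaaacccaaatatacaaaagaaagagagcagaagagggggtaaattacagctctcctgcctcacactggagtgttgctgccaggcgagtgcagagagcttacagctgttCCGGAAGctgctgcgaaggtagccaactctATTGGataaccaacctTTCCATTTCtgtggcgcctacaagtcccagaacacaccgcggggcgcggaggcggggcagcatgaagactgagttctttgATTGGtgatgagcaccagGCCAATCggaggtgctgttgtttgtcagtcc
Psmd14: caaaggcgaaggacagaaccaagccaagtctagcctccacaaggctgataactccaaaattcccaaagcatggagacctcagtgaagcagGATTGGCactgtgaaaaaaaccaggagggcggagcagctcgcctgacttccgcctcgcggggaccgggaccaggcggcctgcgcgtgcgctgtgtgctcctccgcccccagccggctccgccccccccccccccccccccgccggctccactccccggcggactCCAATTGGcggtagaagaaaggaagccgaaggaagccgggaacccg
Psme1: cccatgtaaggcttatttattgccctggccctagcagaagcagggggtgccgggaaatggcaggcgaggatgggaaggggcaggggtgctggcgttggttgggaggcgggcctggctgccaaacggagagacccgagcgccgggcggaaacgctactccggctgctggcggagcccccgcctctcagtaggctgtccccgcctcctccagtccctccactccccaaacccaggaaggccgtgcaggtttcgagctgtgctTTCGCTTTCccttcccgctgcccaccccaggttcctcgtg
In the Psmb5 promoter the capitals are 2 matches to TGANNNNGC, at -47 to -39 and at 41 to 49, counting the start site as 0. The Psmd4 promoter held none of that motif, but 3 matches to CCAAT (1 of them inside GATTGGC), 1 to CCGGAAG at -125 to -119 and 1 to GAAANNGAA at -79 to -71. In Psmd14 there were 3 matches to CCAAT, of which 1 lay inside GATTGGC at -160 to -154, and in Psme1 1 match to GAAANNGAA at 10 to 18. Promoters of Psmb8, Psmb9, Psmb10, Psme2 and Psme2b, not printed, held no match to GAAANNGAA.

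A promoter was found for 39 of the 47 genes. TGANNNNGC was in 22 of these 39 (56.4%), beside 45.0% of all 27025 genes with a promoter in the RefSeq table, with 9 of 12 core genes and 9 of 18 cap genes. CCGGAAG was in 15 of 39 (38.5%), beside 9.93% of all genes, and split unevenly, with 10 of 18 cap genes and 1 of 12 core genes (Psma6). CCAAT was in 14 (35.9%) beside 41.1%, GATTGGC in 5 (12.8%) beside 7.83%, and GAAANNGAA in 7 (17.9%) beside 9.76%. The median log2 fold change was 0.26 for tested genes with CCGGAAG and 0.56 for those without it, 0.50 with TGANNNNGC and 0.52 without it. For CCAAT it was 0.51 with and 0.50 without, for GATTGGC 0.26 and 0.51, and for GAAANNGAA 0.78 and 0.50. These are letter matches and were not tested against the expression values.

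The alpha ring, which forms the gate of the core, was covered by 7 tested genes with log2 fold changes between 0.33 and 0.65 and a median of 0.51. Psma6, the most abundant of them, measured 129 and 160.0 FPKM in Piezo1KO 1 and 2, against 100.2 and 91.3 FPKM in WT 1 and 2 (log2 fold change 0.58 ± 0.19 SE, limma adjusted p = 0.155). Psma2 had the highest alpha fold, with 21.9 and 34.7 FPKM in Piezo1KO libraries and 17.7 and 16.8 FPKM in WT libraries (0.65 ± 0.25, limma adjusted p = 0.176). Psma3 had the lowest, with 26.2 and 40.0 FPKM in Piezo1KO libraries and 25.3 and 25.8 FPKM in WT libraries (0.33 ± 0.23, limma adjusted p = 0.369). In all 7 the groups did not overlap, where 33.9% of all genes tested stood apart upward, and Piezo1KO 2 was the highest library. Psma5, next lowest at 46.4 and 68.5 FPKM in Piezo1KO libraries against 39.7 and 45.2 FPKM in WT libraries (0.40 ± 0.24, limma adjusted p = 0.293), cleared WT 2 by little in Piezo1KO 1. So did Psma3, at 26.2 FPKM in Piezo1KO 1 against 25.8 FPKM in WT 2.

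Psma3 also shows a limit of the counting. Over windows of 50 bases, 100% of the transcript of the processed pseudogene Gm13835 on chromosome 6 occurs in Psma3. The table gives Gm13835 77.1 and 124 FPKM in Piezo1KO 1 and 2, against 67.0 and 57.5 FPKM in WT 1 and 2, more than Psma3 itself in every library. In reads the copy took 34.2% and 35.3% of the Psma3 and Gm13835 sum in Piezo1KO libraries, against 31.7% and 28.2% in WT libraries. Psma3 is therefore reported as uncertain, as are Psma5, with 49.96% of its windows shared with the pseudogenes Gm8394, Gm12989 or others, and Psmb5, with 54.1% shared, mostly with Gm3375. Gm3375 held 43 and 62 reads in Piezo1KO libraries and 45 and 35 in WT libraries, beside 1877 and 1700 reads of Psmb5 in Piezo1KO libraries and 1728 and 1645 in WT libraries. The Psma5 copies held more beside their gene: Gm8394 had 74 and 63 reads in Piezo1KO libraries and 95 and 118 in WT libraries, and Gm12989 had 56 and 68 in Piezo1KO libraries and 75 and 97 in WT libraries. Psma5 itself had 904 and 678 reads in Piezo1KO libraries and 1034 and 1215 in WT libraries.

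The beta ring stood higher than the alpha ring, with a median log2 fold change of 0.77 over 7 tested genes and a range of 0.40 to 1.01. Psmb5 (ENSMUSG00000022193, chr14:54614119-54618022 of GRCm38, minus strand), the chymotrypsin-like cutting subunit and target of proteasome inhibitor drugs, measured 142 and 252 FPKM in Piezo1KO 1 and 2, against 97.5 and 89.9 FPKM in WT 1 and 2. Its log2 fold change was 1.01 ± 0.32 SE, with a 95% interval of 0.16 to 1.86 and a limma adjusted p of 0.150. Both Piezo1KO libraries lay above both WT libraries, and the pair of Piezo1KO libraries differed from each other by more than Piezo1KO 1 differed from WT. Psmb6, the caspase-like subunit, followed with 86.6 and 134 FPKM in Piezo1KO libraries and 61.3 and 54.9 FPKM in WT libraries (0.88 ± 0.26, limma adjusted p = 0.142). Psmb7, the trypsin-like subunit, behaved differently from these 2 in its spread: 31.4 and 32.5 FPKM in Piezo1KO libraries, against 24.1 and 23.9 FPKM in WT libraries (0.40 ± 0.13, interval 0.05 to 0.74, limma adjusted p = 0.152). Its groups were compact and separate. Psmb2, a structural beta subunit, measured 45.2 and 68.6 FPKM in Piezo1KO libraries and 41.4 and 39.7 FPKM in WT libraries (0.45 ± 0.24, limma adjusted p = 0.264). Psmb1, Psmb3 and Psmb4 completed the ring with groups that did not overlap, where 33.9% of all genes tested stood apart upward. Psmb4 was the most abundant of these, at 117 and 159 FPKM in Piezo1KO libraries against 91.8 and 87.2 FPKM in WT libraries. Scaled to all assigned reads, Psmb5 and Psmb6 stayed positive at 0.20 and 0.08 while Psmb7 and Psmb2 turned to -0.38 and -0.35.

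Cap genes spread more widely. Their median log2 fold change was 0.27 over 21 tested genes, with a range of -0.21 to 0.93, 16 genes apart upward, 1 apart downward and 4 overlapping. Of all genes tested, 33.9% stood apart upward and 35.6% downward. The Psmc group had a median of 0.52, close to the alpha ring, and the Psmd group 0.26. Psmc5, the ATPase with the highest level of all 47 genes in every library, measured 165 and 261 FPKM in Piezo1KO 1 and 2, against 125 and 126 FPKM in WT 1 and 2 (0.72 ± 0.28 SE, limma adjusted p = 0.179). Psmc1 was next in fold, with 145 and 190.0 FPKM in Piezo1KO libraries and 111 and 114 FPKM in WT libraries (0.56 ± 0.21, limma adjusted p = 0.174). Psmc2 was the lowest of the true ATPases, with 31.8 and 31.3 FPKM in Piezo1KO libraries and 27.1 in both WT libraries (0.21 ± 0.13, limma adjusted p = 0.311). Quantile normalisation turned Psmc5, Psmc1 and Psmc2 to -0.05, -0.16 and -0.06, so their direction rests on the scaling. Psmc3ip, which is no subunit, overlapped between groups, at 5.97 and 8.88 FPKM in Piezo1KO libraries against 5.66 and 6.19 FPKM in WT libraries (0.26 ± 0.21, limma adjusted p = 0.412).

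Psmd4 and Psmd14, which both handle ubiquitin, sat at opposite ends of the Psmd group. Psmd4 (ENSMUSG00000005625, chr3:95032694-95042614, minus strand), a receptor that binds ubiquitin chains, measured 60.4 and 93.9 FPKM in Piezo1KO 1 and 2, against 38.7 and 39.7 FPKM in WT 1 and 2. Its log2 fold change was 0.93 ± 0.25 SE, with an interval of 0.26 to 1.59 and a limma adjusted p of 0.136. Psmd14 (ENSMUSG00000026914, chr2:61711694-61800376, plus strand), the metalloprotease that removes ubiquitin chains as the substrate enters, measured 28.6 and 25.8 FPKM in Piezo1KO libraries and 32.4 and 30.7 FPKM in WT libraries (-0.21 ± 0.14, interval -0.58 to 0.16, limma adjusted p = 0.343). Psmd14 was the only one of the 35 tested core and cap genes with both Piezo1KO libraries under both WT libraries, and it was negative under every alternative setting tried. Psmd13, a lid subunit, was second highest, with 56.3 and 93.6 FPKM in Piezo1KO libraries and 42.5 and 37.4 FPKM in WT libraries (0.85 ± 0.28, limma adjusted p = 0.154). Psmd3, another lid subunit, overlapped, with 51.8 and 41.5 FPKM in Piezo1KO libraries and 45.4 and 47.6 FPKM in WT libraries (-0.0048 ± 0.17, limma adjusted p = 0.985).

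The large scaffold subunits showed small separations. Psmd2 measured 123 and 121 FPKM in Piezo1KO 1 and 2, against 109 and 111 FPKM in WT 1 and 2. Psmd1 measured 22.5 and 22.2 FPKM in Piezo1KO libraries and 20.0 and 20.3 FPKM in WT libraries. In both genes the groups were apart but the distance was small beside that of Psmd4. Their transcripts are longer, at 2961 bases for Psmd2 and 3112 for Psmd1, beside 1276 for Psmd4. The log2 fold changes were 0.15, 0.14 and 0.93 in that order. All protein-coding genes of the same length classes had medians of 0.036, -0.26 and 0.44. Psmd8, a lid subunit, measured 86.6 and 116 FPKM in Piezo1KO libraries and 64.8 and 51.9 FPKM in WT libraries. Among the assembly chaperones Psmd5 overlapped, at 6.18 and 7.18 FPKM in Piezo1KO libraries against 6.73 and 6.30 FPKM in WT libraries, while Psmd9 and Psmd10 lay higher in both Piezo1KO libraries. Psmd9 shares 24.95% of its windows, mostly with the overlapping antisense transcript Gm26745, and the strand setting of the counting is not stated. Leaving out Psmc3ip, Psmd5, Psmd9 and Psmd10 left the cap median at 0.27.

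**Figure D2:**
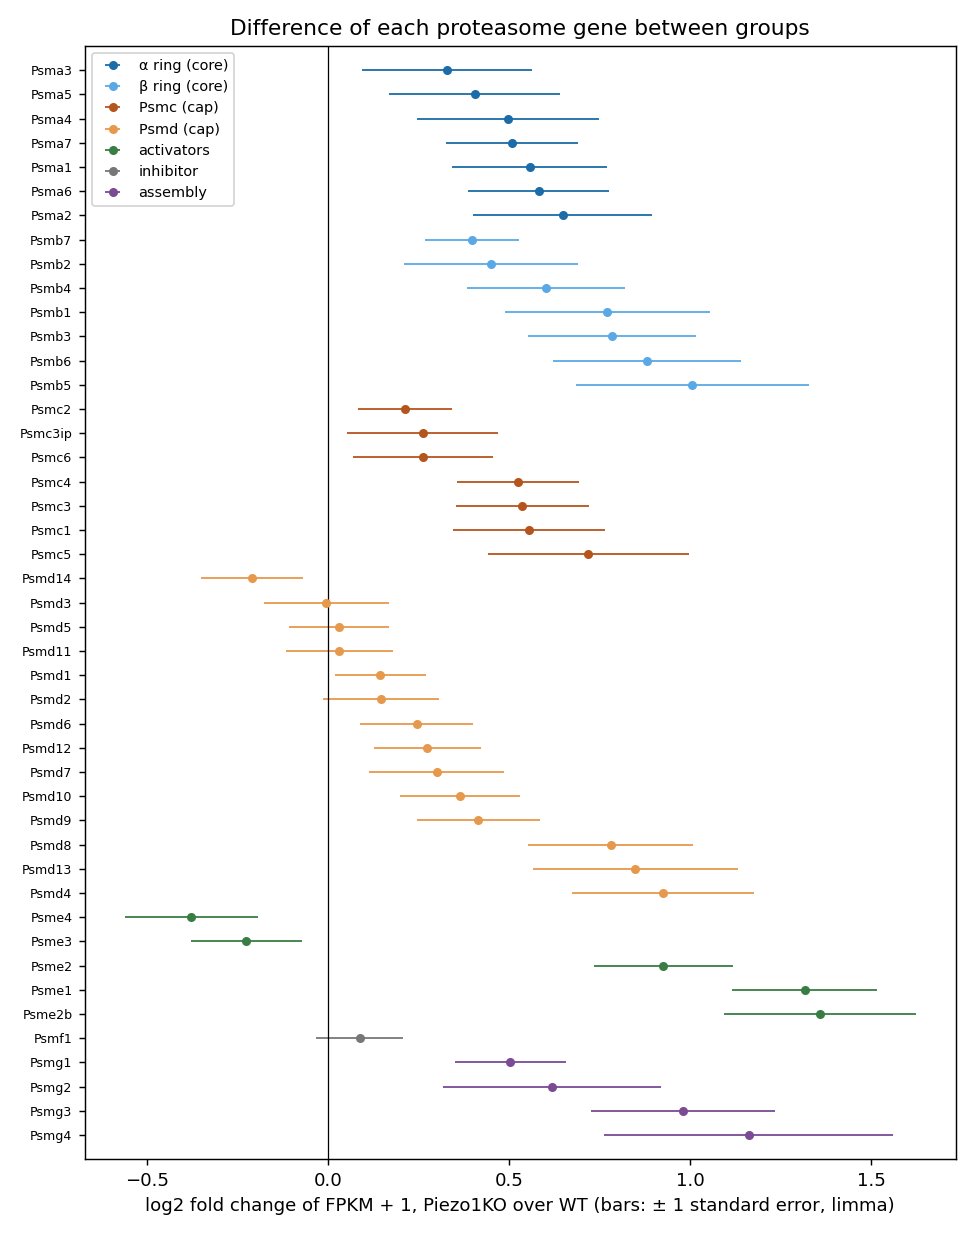
log2 fold change of FPKM + 1, Piezo1KO over WT, for the 45 tested proteasome genes, with bars of ± 1 standard error from limma and colours for the subgroups. Every alpha and beta gene lies right of 0 (0.33 to 1.01) for FPKM as deposited, Psmd14, Psme3 and Psme4 lie left of it and Psmd3 at it, and Psme1 and Psme2b lie farthest right; scaled to all assigned reads, the core median is -0.23.

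Set against each other, core exceeded cap by 0.29 in median log2 fold change (0.57 and 0.27). The gap between core and cap levels was not the same in the Piezo1KO libraries. The median core log2 level lay 0.26 above the median cap level in Piezo1KO 1 and 0.70 above it in Piezo1KO 2, against 0.26 in both WT 1 and WT 2. By this measure Piezo1KO 1 could not be told from the WT libraries and Piezo1KO 2 alone differed. The ratio of summed core to summed cap FPKM was 0.769 and 0.892 in Piezo1KO 1 and 2, against 0.732 and 0.712 in WT 1 and 2, so the Piezo1KO libraries were higher by this second measure. Counted gene by gene from the WT mean, the median core deviation was 0.35 in Piezo1KO 1 and 0.81 in Piezo1KO 2, and the median cap deviation 0.18 and 0.48. With 2 libraries a group, the smallest p of an exact test is 0.333.

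**Figure D3:**
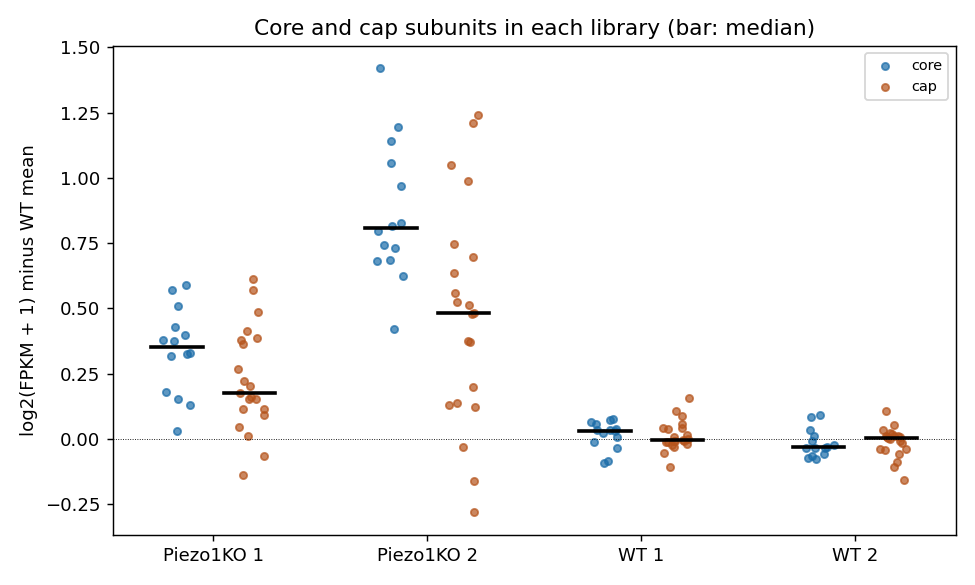
Deviation of log2(FPKM + 1) from the WT mean for each tested core gene (blue, 14) and cap gene (orange, 21) in each library, with a black bar at the median. The core bar lies above the cap bar in both Piezo1KO libraries (0.35 over 0.18, and 0.81 over 0.48), and the cap genes spread more widely than the core genes in Piezo1KO 2.

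Most proteasome genes were highest in Piezo1KO 2. It lay above Piezo1KO 1 in 37 of the 45 genes, where 47.5% of all genes tested did. Piezo1KO 2 was also the library with 48.3% mitochondrial reads, and the part of that in these values was not tested. Without Piezo1KO 1 limma called 36 of the 45, 35 of them higher in Piezo1KO, where 52.9% of all genes were called and 27.5% were called as higher. Without Piezo1KO 2 it called 8 of the 45, all higher, where 14.2% of all genes were called and 9.71% were called as higher. Among them were Psmb5 (0.59, limma adjusted p = 0.0325), Psmb6 (0.57, limma adjusted p = 0.040) and Psmd4 (0.61, limma adjusted p = 0.0228). In both fits the lone Piezo1KO library is assumed to vary like the WT libraries. Without WT 1 or WT 2 limma called 0 of the 45, with 2 at an unadjusted p under 0.05 in each case.

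The fold change of proteasome genes followed transcript length. Core transcripts are short, with a median of 1162.5 bases for the reference transcript of each gene, cap transcripts longer at 1785 bases, and all tested genes longer still at 2918 bases. Across the 45 proteasome genes the Spearman correlation of length with log2 fold change was -0.69. Within the 14 core genes it was -0.35, within the 21 cap genes -0.48, and across 9922 protein-coding genes -0.64. Genes share the same 4 libraries, so these are descriptions. Among all protein-coding genes with transcripts under 1000 bases the median fold was 0.82, and the 5 core genes of that length had a median of 0.78. From 1000 to under 1500 bases all genes had 0.44, the 6 core genes 0.53 and the 6 cap genes 0.44. From 1500 to under 2000 bases all genes had 0.24, the 8 cap genes 0.42 and the single core gene, Psmb1, 0.77. From 2000 to under 3000 bases all genes had 0.036, the 2 core genes Psma2 and Psma3 had 0.49 and the 5 cap genes 0.15. At 3000 bases and more all genes had -0.26 and the 2 cap genes 0.087, with no core gene in the class.

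Set against the median of genes of their own length class, 9 of 14 core genes and 14 of 21 cap genes lay above it, with median distances of 0.086 for core and 0.11 for cap. With the transcript length trend removed in each library, a setting chosen after seeing the data, the core median was 0.054 and the cap median 0.20, so that the core minus cap difference changed sign to -0.14. In the 6 core and 6 cap genes with transcripts of 1000 to under 1500 bases the difference was 0.082. Removing a trend on the authors' gene length instead, which counts all exons of a gene, left it at 0.14, and restricting both groups to the gene lengths they share left 0.21. With the transcript length trend removed, the cap subunits Psmd13 and Psmd4 were at 0.72 and 0.51 and the cutting subunit Psmb5 at 0.33, whereas the core subunit Psmb2 was at -0.26. Psmd14 lay at -0.50 under that setting, farther from 0 than the -0.21 of the deposited values.

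**Figure D4:**
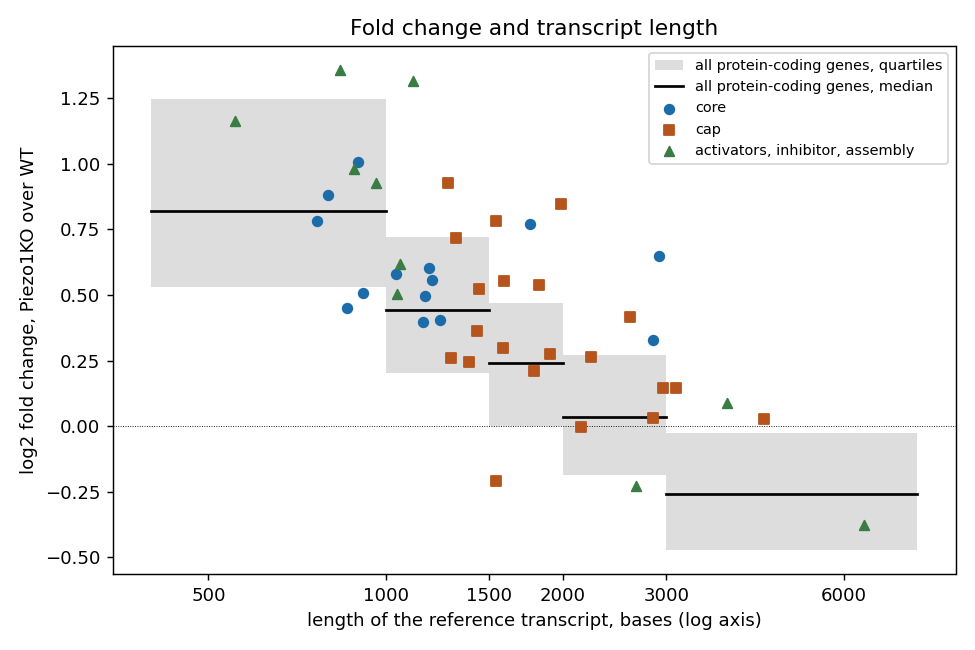
log2 fold change, Piezo1KO over WT, against the length of the reference transcript (log axis) for core (blue circles), cap (orange squares) and other proteasome genes (green triangles), over the median (black line) and quartiles (grey) of all protein-coding genes in 5 length classes. The all-gene median falls along the axis, from 0.82 under 1000 bases to -0.26 at 3000 bases and more, and the core genes sit mostly at its short end.

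Activators split into 3 genes with higher and 2 with lower values in Piezo1KO, for FPKM as deposited and for every other scaling tried. Psme1 (ENSMUSG00000022216, chr14:55578123-55581529, plus strand), the alpha subunit of the interferon-inducible activator PA28, measured 30.9 and 43.2 FPKM in Piezo1KO 1 and 2, against 14.3 and 13.9 FPKM in WT 1 and 2. Its log2 fold change was 1.32 ± 0.20 SE, with an interval of 0.79 to 1.85 and the lowest limma adjusted p of all 45 genes, 0.0805. Psme2, the beta subunit, measured 6.77 and 9.45 FPKM in Piezo1KO libraries and 3.54 and 3.96 FPKM in WT libraries (0.93 ± 0.19, limma adjusted p = 0.118). The near-copy Psme2b, named after its values were seen, measured 18.1 and 30.3 FPKM in Piezo1KO libraries and 8.54 and 8.51 FPKM in WT libraries (1.36 ± 0.27, limma adjusted p = 0.113). Psme2 and Psme2b are uncertain singly, since 28.3% of the windows of Psme2 and 69.3% of those of Psme2b occur elsewhere, mostly in each other. All 3 had both Piezo1KO libraries above both WT libraries, where 33.9% of all genes tested did. Psme1, Psme2 and Psme2b stayed positive when scaled to all assigned reads, at 0.54, 0.24 and 0.60. With the transcript length trend removed they were at 0.80, 0.30 and 0.63.

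The other 2 activators, which act in the nucleus, lay lower. Psme3, PA28 gamma, measured 74.0 and 69.5 FPKM in Piezo1KO libraries and 86.1 and 82.1 FPKM in WT libraries (-0.23 ± 0.15 SE, interval -0.63 to 0.18, limma adjusted p = 0.348). Psme4, which caps the core without ATP, measured 14.0 and 10.4 FPKM in Piezo1KO libraries and 16.7 and 15.3 FPKM in WT libraries (-0.38 ± 0.18, interval -0.86 to 0.11, limma adjusted p = 0.234). Groups did not overlap in either gene, where 35.6% of all genes tested stood apart downward. Psme4 has the longest transcript of the tested proteasome genes, and with the transcript length trend removed its value was 0.032, whereas Psme3 kept -0.21. The inhibitor Psmf1 was nearly level in deposited FPKM, with 7.81 and 8.10 FPKM in Piezo1KO libraries and 7.46 and 7.41 FPKM in WT libraries (0.087 ± 0.12, interval -0.23 to 0.41, limma adjusted p = 0.628). Its transcript has 3809 bases, and its value was 0.27 with the transcript length trend removed and 0.31 with the gene length trend removed.

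The interferon-induced subunits of the core, set apart by the rule, had the same direction as Psme1 and Psme2. Psmb8, which replaces Psmb5, rose to 4.04 and 3.32 FPKM in Piezo1KO 1 and 2, against 0.556 and 0.413 FPKM in WT 1 and 2 (1.65 ± 0.18 SE, limma adjusted p = 0.0461). Without WT 1 or WT 2 its log2 fold change was 1.72 and 1.58 and the limma adjusted p 0.428 and 0.510, in fits that called 0 genes in all. Psmb10, which replaces Psmb7, measured 15.0 and 22.3 FPKM in Piezo1KO libraries and 8.06 and 6.98 FPKM in WT libraries (1.18 ± 0.22, limma adjusted p = 0.108). Psmb9, which replaces Psmb6, was under the filter, with 95 and 22 reads in Piezo1KO libraries and 9 and 6 in WT libraries. These genes are strongly expressed by leukocytes. Of the leukocyte markers, 7 of 10 T cell, 6 of 7 macrophage, 4 of 5 neutrophil and 1 of 3 B cell genes also had both Piezo1KO libraries above both WT libraries, where 33.9% of all genes tested did. These marker counts include genes under the filter: 4 T cell, 7 macrophage, 4 neutrophil and 1 B cell genes were tested. The 33.9% covers only tested genes, so the sets are unlike. The B cell markers summed to 2.59 and 1.05 FPKM in Piezo1KO libraries, against 1.12 and 0.959 FPKM in WT libraries, and overlapped, unlike the other summed levels given above. The part of these cells in this result was not tested.

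Assembly factors were all positive. Psmg4, a chaperone of the alpha ring and the gene with the shortest transcript of the set, measured 31.8 and 69.5 FPKM in Piezo1KO 1 and 2, against 22.8 and 18.4 FPKM in WT 1 and 2 (1.16 ± 0.40 SE, limma adjusted p = 0.158). Its partner Psmg3 measured 4.57 and 7.79 FPKM in Piezo1KO libraries and 2.42 and 2.68 FPKM in WT libraries (0.98 ± 0.25, limma adjusted p = 0.132). Piezo1KO 2 was well above Piezo1KO 1 in both genes. Psmg1, of the other alpha-ring chaperone pair, measured 29.6 and 35.1 FPKM in Piezo1KO libraries and 23.1 and 21.9 FPKM in WT libraries (0.50 ± 0.15, limma adjusted p = 0.146). Its partner Psmg2 measured 20.4 and 35.9 FPKM in Piezo1KO libraries and 15.8 and 18.9 FPKM in WT libraries (0.62 ± 0.30, limma adjusted p = 0.234). Groups were apart in all 4 genes, where 33.9% of all genes tested stood apart upward, and in each Piezo1KO 2 was the highest library. With the transcript length trend removed Psmg4 was at 0.08, Psmg3 at 0.29, Psmg2 at 0.060 and Psmg1 at -0.065.

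Genes that work beside these showed 0 calls by limma in both lists described here, where 1.1% of all genes tested were called. Of 9 listed subunits and attached enzymes that carry other names, Paaf1 was not analysed here. Of the 8 tested, 3 had groups apart upward and 1 apart downward, where 33.9% and 35.6% of all genes tested did. Pomp, which matures the core, measured 24.0 and 43.6 FPKM in Piezo1KO libraries and 14.8 and 15.4 FPKM in WT libraries (1.05 ± 0.30, limma adjusted p = 0.141). Sem1, the smallest cap subunit, measured 37.8 and 100.5 FPKM in Piezo1KO libraries and 30.1 and 27.0 FPKM in WT libraries (1.09 ± 0.48, limma adjusted p = 0.207). Ube3c, a ubiquitin ligase that docks on the cap, was lower, at 10.7 and 8.67 FPKM in Piezo1KO libraries against 13.1 and 12.7 FPKM in WT libraries (-0.38 ± 0.15, limma adjusted p = 0.184). With the transcript length trend removed Ube3c was at -0.075, Pomp at 0.78 and Sem1 at 0.77.

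Regulators, shuttle factors and the p97 segregase lay on both sides of 0. Over 15 tested genes the median log2 fold change was -0.094, with 4 apart upward and 7 apart downward, where 33.9% and 35.6% of all genes tested stood apart in these directions. Ddi2, the protease that releases active NRF1, measured 2.80 and 2.67 FPKM in Piezo1KO libraries and 5.28 and 4.65 FPKM in WT libraries (-0.67 ± 0.14 SE, limma adjusted p = 0.118). Zfand5, a proteasome-binding activator, measured 19.6 and 18.7 FPKM in Piezo1KO libraries and 27.0 and 24.2 FPKM in WT libraries (-0.40 ± 0.14, limma adjusted p = 0.159). Akirin2, which carries proteasomes into the nucleus, measured 51.7 and 69.4 FPKM in Piezo1KO libraries and 44.6 and 42.5 FPKM in WT libraries (0.45 ± 0.20, limma adjusted p = 0.205). Transcripts of this list are long, with a median of 3316 bases. With the transcript length trend removed Ddi2 was at -0.52, Zfand5 at 0.057 and Akirin2 at 0.094.

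As a share of reads the picture depended on the denominator. The 47 genes took 0.549% and 0.394% of all assigned reads in Piezo1KO 1 and 2, against 0.597% and 0.594% in WT 1 and 2. Outside mitochondrial genes they took 0.688% (exact 95% binomial interval 0.683% to 0.692%) and 0.762% (0.756% to 0.768%) of reads in Piezo1KO libraries, against 0.621% (0.617% to 0.625%) and 0.613% (0.609% to 0.617%) in WT libraries. The groups were apart by both denominators, lower in Piezo1KO by the first and higher by the second. Intervals cover counting error only.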

How the data were processed

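RNA was measured in 4 libraries, 2 labelled Piezo1KO and 2 labelled WT. For each gene and library the authors deposited an FPKM value, with the length of the gene. The submitters' processing notes name fastp 0.19.7, featureCounts 1.5.0-p3 and the mouse build mm10, or GRCm38. Aligner, annotation release, strand setting and FPKM formula: not given in the sources used here. The product of FPKM and gene length was a whole multiple of 1 step per library for 100% of values above 0 (tolerance 0.05 reads), which gave reads per gene and implied library sizes 0.962 and 0.544 times the assigned reads in Piezo1KO 1 and 2, against 1.26 and 1.28 times in WT 1 and 2.

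The columns and descriptions number the WT libraries differently from the titles, whose numbers are used here. The test was limma's (version 3.58.1 under R 4.3.3, intensity trend) on log2(FPKM + 1), two-sided, over 11085 genes with a mean of at least 1 FPKM, and adjusted by the Benjamini-Hochberg method at 0.05. For low genes this scale gives too small a fold change. The fit has 2 residual and 2.59 prior degrees of freedom. The procedure was tested on simulated data with known fold changes. The simulated data held no transcript length trend and no shift between libraries of a group, so that test does not cover these features. Fold changes with tests are given for the 2 highest and 2 lowest of each of the Psma, Psmb, Psmc and Psmd groups, for the cutting subunits, Psmd4, Psmd14, activators, inhibitor, assembly factors and interferon-induced subunits, and for up to 3 genes of each related list with the smallest p. 1 related list is not reported here. Members, lists and tests were chosen with earlier results of these data known.

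Transcript lengths are those of the GENCODE M21 transcript with the longest coding sequence. Shared sequence was counted in windows of 50 bases over GENCODE transcripts. Promoters came from RefSeq (GRCm38.p6).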

Additional observations from a re-analysis of the deposited data

How the results depend on the processing

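No proteasome gene was called by limma in any setting that kept all 4 libraries. Over the fits that left out 1 library, genes called ranged from 0 to 5859, proteasome genes called from 0 to 36 and the cap median from 0.18 to 0.48. Psmd3 was 0.15 without Piezo1KO 2 and 0.028 without WT 2.

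Over all genes, 122 were called (81 higher, 41 lower in Piezo1KO). The count was 1 with no filter, 68 with a mean of at least 5 FPKM, 192 after quantile normalisation, 51 (35 higher, 16 lower) with the gene length trend removed and 69 (59 higher, 10 lower) with the transcript length trend removed. Scaled to all assigned reads it was 1718 (252 higher, 1466 lower), and scaled to reads outside mitochondrial genes 74 were higher and 58 lower. With the replicate block 264 genes and 0 proteasome genes were called. The labels pair no libraries, and deviations of same-numbered libraries correlated at -0.033.

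Scaled to all assigned reads the core and cap medians were -0.23 and -0.50, and negative values replaced positive ones in Psma2 (-0.13), Psma3 (-0.46), Psma5 (-0.39), Psma6 (-0.22), Psmb2 (-0.35), Psmb7 (-0.38), Psmc1 (-0.25), Psmc2 (-0.57), Psmc3ip (-0.44), Psmc5 (-0.089), Psmf1 (-0.62), Psmg1 (-0.28), Psmg2 (-0.16) and Akirin2 (-0.35). Scaled to reads outside mitochondrial genes the cap median was 0.066, Psmf1 -0.12 and Psmc2 -0.0066; the all-gene median was then -0.20. Quantile normalisation gave a core median of 0.14, a cap median of -0.046, and Psma5 -0.014, Psma6 -0.074, Psmc1 -0.16, Psmc2 -0.055 and Psmc5 -0.049. With the gene length trend removed Psma5 was -0.021, Psmb2 -0.0030, Psmc3ip -0.075 and Psmd3 0.12. With the transcript length trend removed the core median was 0.054, the cap median 0.20, their difference -0.14, and Psma5 -0.035, Psmb2 -0.26, Psmb7 -0.090, Psmc3ip -0.15, Psme4 0.032, Psmg1 -0.065 and Zfand5 0.057. Piezo1 was -0.64 with the transcript length trend removed, -0.79 with the gene length trend removed and -1.87 scaled to all assigned reads, beside -1.14 in the reported fit. The cause of these moves was not tested. Psmb8 was also not called with no filter, outside mitochondrial genes and with the gene length trend removed (limma adjusted p = 0.171, 0.0524 and 0.0553), where its log2 fold change was 1.65, 1.65 and 1.505, beside 1.65 in the reported fit. Psma8, Psmb9 and Psmb11 had too few reads to enter the fit.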
